A study of Mus musculus with 17 samples.

Results

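The 9 genes described here encode the cardiac myosin motor and the proteins that hold or modify it on the thick filament, namely Myh6, Myh7, Myh7b, Myl2, Myl3, Myl4, Myl7, Mybpc3 and Mylk3. They were chosen by name, as the adult, foetal and atrial isoforms of this filament, and all 9 were found among the 31647 features of the count table and passed the filter on low counts that left 12301 features for testing. Hearts of 17 male wild-type C57BL/6J mice, 8 to 11 weeks old at surgery, were compared. In 9 mice the left anterior descending coronary artery was ligated permanently and the infarct zone (IZ) was taken 5 days later. The other 8 mice had sham surgery, without occlusion of the artery, and left ventricular tissue was taken after the same 5 days. IZ tissue is therefore set against ventricle that holds its full muscle mass, and in bulk tissue fewer cardiomyocytes and less RNA per cardiomyocyte cannot be told apart.

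Each myosin molecule is a pair of heavy chains with motor heads, and each head carries an essential and a regulatory light chain on its lever arm. Myh6 encodes the fast alpha heavy chain that dominates the adult mouse ventricle, Myh7 the slower and more economical beta heavy chain of the foetal ventricle, and Myh7b a minor slow-type heavy chain. Myl3 and Myl2 encode the ventricular essential and regulatory light chains, whereas Myl4 and Myl7 encode the atrial ones, and Myl4 is also made in the foetal ventricle. Myosin-binding protein C, from Mybpc3, ties heads to the filament backbone, and the kinase from Mylk3 phosphorylates the ventricular regulatory light chain. A shift from Myh6 to Myh7 is a known feature of the stressed rodent heart.

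The heavy chain genes lie in tandem on the minus strand of chromosome 14 in GRCm38, Myh6 at chr14:54941921-54966927 and Myh7 at chr14:54970684-54994626. Their 3' ends matter because the libraries were read from transcript ends. The last 150 coding bases of Myh6 are shown with the corresponding stretch of Myh7, 5′ to 3′, from the GENCODE M21 transcripts, with capitals at bases that differ or have no counterpart.
Myh6: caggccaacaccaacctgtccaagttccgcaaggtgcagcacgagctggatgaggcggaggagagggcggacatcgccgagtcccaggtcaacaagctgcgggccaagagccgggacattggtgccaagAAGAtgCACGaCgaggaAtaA
Myh7: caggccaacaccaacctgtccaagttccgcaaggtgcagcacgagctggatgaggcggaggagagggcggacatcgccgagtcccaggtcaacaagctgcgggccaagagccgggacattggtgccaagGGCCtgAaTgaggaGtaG
The first 129 bases of this stretch were the same in both genes, and the differences, 8 substituted and 3 unaligned bases, sat at its very end. Over the last 400 aligned coding positions the identity was 95.2%, with one uninterrupted identical run of 173 bases, against 91.6% over the whole coding sequence. Only the final exon, 81 bases long in Myh6 and 44 in Myh7, separated the transcripts clearly. How reads matching both genes had been counted was not given in the sources used here, so the split of counts between Myh6 and Myh7 is uncertain and their sum is the firmer value. Any reads counted for neither gene would be missing from that sum. None of the other 7 genes had another gene with at least 95% identity over at least 100 bases of its last 500 transcript bases.

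Promoter windows of RefSeq GRCm38.p6, from 250 bases before to 50 after the annotated start, were read for motifs of cardiac regulators on both strands. These were AGATAA for GATA factors, CATTCC for the M-CAT element of TEAD factors, TATAAA, and the MEF2 and CArG elements by name. All 9 genes matched at least 1 window. Windows are shown for the main ventricular heavy chain, a ventricular and an atrial light chain, and Mybpc3, with motif matches in capitals.
Myh6, chr14:54966558-54966857, minus strand: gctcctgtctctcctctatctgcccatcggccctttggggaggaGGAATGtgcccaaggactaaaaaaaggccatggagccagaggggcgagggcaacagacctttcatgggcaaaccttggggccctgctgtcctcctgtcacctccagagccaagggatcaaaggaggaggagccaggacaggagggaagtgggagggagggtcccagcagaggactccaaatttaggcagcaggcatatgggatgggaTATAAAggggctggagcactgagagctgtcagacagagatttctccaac
Myl3, chr9:110763428-110763727, plus strand: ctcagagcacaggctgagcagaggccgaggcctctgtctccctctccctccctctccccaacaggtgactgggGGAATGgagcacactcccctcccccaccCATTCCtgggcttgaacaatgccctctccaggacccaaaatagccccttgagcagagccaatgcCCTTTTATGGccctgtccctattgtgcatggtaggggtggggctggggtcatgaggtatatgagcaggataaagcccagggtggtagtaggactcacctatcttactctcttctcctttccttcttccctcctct
Myl7, chr11:5898733-5899032, minus strand: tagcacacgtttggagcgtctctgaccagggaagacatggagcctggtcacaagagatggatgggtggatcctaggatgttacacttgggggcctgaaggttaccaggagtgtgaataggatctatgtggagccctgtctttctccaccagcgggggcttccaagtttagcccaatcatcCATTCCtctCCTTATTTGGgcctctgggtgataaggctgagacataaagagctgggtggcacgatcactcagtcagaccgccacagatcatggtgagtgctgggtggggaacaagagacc
Mybpc3, chr2:91117894-91118193, plus strand: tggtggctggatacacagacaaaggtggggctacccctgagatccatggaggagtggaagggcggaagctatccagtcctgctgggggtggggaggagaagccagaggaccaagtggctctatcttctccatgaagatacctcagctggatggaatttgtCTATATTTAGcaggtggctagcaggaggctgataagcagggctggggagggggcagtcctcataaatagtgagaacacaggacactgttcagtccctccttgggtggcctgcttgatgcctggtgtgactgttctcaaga
The M-CAT letters stood in windows of 5 of the 9 genes, among them Myh6, Myl3 and Myl7, and in 14.7% of all 32851 windows. The CArG element stood in Myl3 and Myl7 and in 1.63% of all windows, and MEF2 in Mybpc3 and in 3.19% of all. GATA letters stood in windows of 3 genes and in 11.2% of all windows, and TATAAA in 2 genes and in 13.6% of all. Genes were counted if any of their windows matched, and Myh7, Myl2 and Mylk3 had 2 windows each. The percentages are shares of single windows, so the 2 measures are not like for like. A match describes the letters only, and the present data do not measure binding.

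Introns of Myh6, Myh7 and Myh7b hold the myosin-encoded microRNAs Mir208a, Mir208b and Mir499. A single mature strand of each is shown, with the seed, bases 2 to 8, in capitals.
mmu-miR-208a-3p: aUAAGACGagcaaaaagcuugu
mmu-miR-208b-3p: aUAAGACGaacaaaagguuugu
mmu-miR-499-5p: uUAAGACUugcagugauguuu
The strands shown for Mir208a and Mir208b share the seed UAAGACG, and that shown for Mir499 has UAAGACU. The opposite mature strand of each locus has another seed and is not shown. Libraries of polyadenylated transcript ends are not made to capture mature microRNAs, and over all 17 libraries these loci had 0, 1 and 0 counts, so only their host genes can be described.

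Depth ran from 1237675 to 4738307 counts per library, and the 8 sham and 9 IZ libraries all entered the tests. IZ replicate 1 stood apart from the other IZ libraries. Mitochondrially encoded features took 19.5% of its counts, against 4.22% to 6.78% in the other 8 IZ libraries and 22.9% to 32.4% in sham, and the summed level of 7 cardiomyocyte reference genes (Tnnt2, Tnni3, Tnnc1, Actc1, Ttn, Ldb3, Myoz2) was 16759 CPM (counts scaled to a common library size, as defined below), against at most 4793 CPM in the others and 27878 to 35257 CPM in sham. Where this library moved a difference of the genes described here by more than 1.5 times, the value without it is also given. All 7 reference genes were lower in the IZ, 5 of 5 leukocyte markers and 5 of 6 fibroblast markers were higher, and 2 of 5 endothelial markers were lower. Over all genes tested 36.3% were called higher and 33.1% lower, so the endothelial count lies near that background. Their part in the results on myosin was not tested.

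In sham ventricle the 9 genes together took 3.32 ± 0.421% of all counts (SD, n = 8), and in the IZ 0.484 ± 0.529% (SD, n = 9), or 0.311 ± 0.112% without IZ replicate 1 (SD, n = 8). Their levels spanned a wide range. CPM here are counts over library sizes corrected by TMM, a scaling that takes most genes as unchanged. Since only transcript ends were sequenced, CPM were compared between genes without division by length. In sham, Myl2 ranked highest with 18713 ± 1911 CPM, followed by Myh6 with 13960 ± 1799 CPM and Myl3 with 8295 ± 796 CPM (SD, n = 8 each). Myh7 followed with 4340 ± 561 CPM, Mybpc3 with 3071 ± 629 CPM and Mylk3 with 408 ± 84.7 CPM. Every sham library kept this order of 6, although the ranges of Myl2 and Myh6, and of Myh7 and Mybpc3, overlapped. The last 3, Myl7, Myl4 and Myh7b, had means of 80.9, 59.3 and 40.7 CPM and could not be ordered, because Myl7 exceeded Myl4 in only 4 of 8 libraries and Myl4 exceeded Myh7b in 4 of 8.

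In the IZ the means ran from 1198 CPM for Myl2 to 1.59 CPM for Myh7b. Mybpc3 now ranked above Myh7, in 8 of 9 libraries. Without IZ replicate 1 it ranked above Myl3 as well, with a mean of 430.1 against 283.0 CPM and the same order in 8 of 8 libraries. Most neighbouring ranges overlapped in the IZ, apart from Mylk3, which exceeded Myl4 without overlap. The plot of member levels shows the same for each library.

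**Figure D1:**
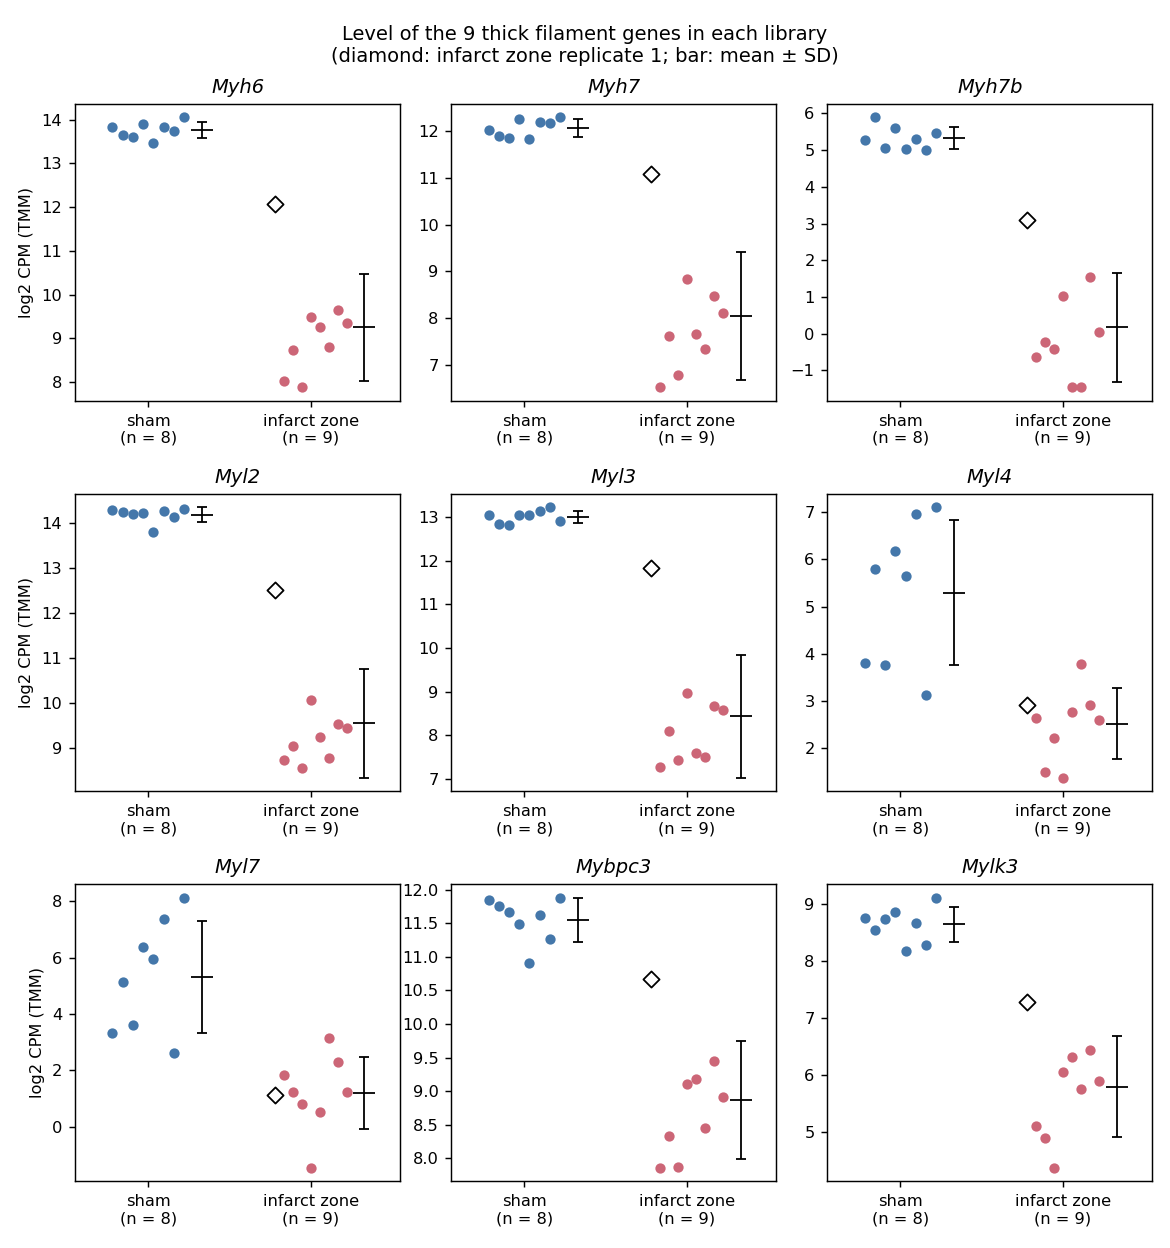
Level of each of the 9 genes in every library, as log2 CPM after TMM scaling, with sham in blue (n = 8) and the IZ in red (n = 9). The diamond is IZ replicate 1 and bars give the mean ± SD. In 7 of the 9 panels every IZ point lies below every sham point, and in the panels of Myl4 and Myl7 the sham points are widely spread and the groups overlap.

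All 9 genes were lower in the IZ (edgeR quasi-likelihood test, Benjamini-Hochberg adjusted p under 0.05). Their median log2 fold change was -3.67, against 0.05 over all genes tested. The background was large, since 69.5% of the 12301 genes were called and 33.1% were called lower. In 7 of the 9 genes every IZ library lay below every sham library, which was the case for 16.5% of the genes tested. With IZ replicate 1 left out, 9 of 9 were still called lower.

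Among the heavy chains, the alpha chain gene Myh6 had a lowest, median and highest level of 11220, 14082 and 17030 CPM in sham. In the IZ these were 235, 610 and 4326 CPM. The highest IZ value was that of replicate 1, and even it lay far under the lowest sham library. The difference of Myh6 was -3.89 ± 0.49 (log2 fold change ± SE, edgeR adjusted p = 2.7e-07), a 14.8-fold lower level, and -4.80 without IZ replicate 1.

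Myh7, the beta chain gene, had 3684, 4408 and 5060 CPM in sham (lowest, median, highest). In the IZ it had 91.0, 201 and 2174 CPM. The groups did not overlap, and the next highest IZ library had 455 CPM. The difference was -3.28 ± 0.51 (edgeR adjusted p = 4.5e-06), or 9.73-fold lower, and -4.28 without replicate 1.

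The sum of Myh6 and Myh7, which does not depend on how shared reads were split, averaged 18300 ± 2310 CPM over the 8 sham libraries and 1387 ± 1941 CPM over the 9 IZ libraries (SD). Without replicate 1 it was 747 ± 324 CPM in the IZ. The ratio of the group means was 13.2-fold, and 24.5-fold without that library. The counted heavy chain pool was therefore lower in the IZ however its reads had been split. Any reads counted for neither gene are not part of this sum.

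Myh7b had 31.7, 38.9 and 59.2 CPM in sham and 0, 0.490 and 8.26 CPM in the IZ (lowest, median, highest). It was close to the limit of detection there, with 23 counts in replicate 1 and 0 to 5 counts in each of the other 8. The difference was -4.90 ± 0.44 (edgeR adjusted p = 1.2e-09), or 29.9-fold, and -6.04, or 66.0-fold, without replicate 1. By log2 fold change it ranked 15 from the bottom among the 12301 genes, where Myl7 ranked 13.

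Mhrt, an antisense long non-coding RNA that overlaps Myh7 on the opposite strand, averaged 82.8 ± 30.9 CPM over the 8 sham libraries and 4.96 ± 7.80 CPM over the 9 IZ libraries (SD). Its difference was -4.24 ± 0.49 on the log2 scale. IZ replicate 1 had 70 counts of Mhrt and each of the other 8 IZ libraries 2 to 12, and without replicate 1 the difference was -5.48 and the IZ mean 2.44 CPM. Whether counting used the strand was not given in the sources used here, so reads of Mhrt and of the end of Myh7 cannot be told apart with certainty.

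Of the ventricular light chains, the regulatory chain gene Myl2 had 14354, 19272 and 20245 CPM in sham and 379, 612 and 5859 CPM in the IZ (lowest, median, highest). No library of one group reached the other. The difference was -3.97 ± 0.51 (edgeR adjusted p = 3.5e-07), a 15.6-fold lower level, and -4.96 without IZ replicate 1.

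The essential chain gene Myl3 had 7285, 8431 and 9560 CPM in sham and 154, 273 and 3622 CPM in the IZ. Here IZ replicate 1 stood farthest from its group, at 3622 CPM where the next highest library had 501 CPM. The difference was -3.67 ± 0.57 (edgeR adjusted p = 4.5e-06), or 12.7-fold, and it grew to -4.91, or 30.2-fold, without that library.

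The atrial light chains varied more within the sham group. Myl7, the atrial regulatory chain gene, ranged from 5.72 to 279 CPM in sham with a median of 48.0 CPM. Myl4, the atrial essential chain gene, ranged from 8.39 to 137 CPM with a median of 52.4 CPM. For both genes sham replicate 7 was lowest and sham replicate 8 highest, a spread that none of the ventricular genes showed.

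In the IZ, Myl7 had 0, 1.959 and 8.59 CPM and Myl4 had 2.24, 5.93 and 13.4 CPM (lowest, median, highest). The IZ library highest in both was replicate 7, which exceeded the lowest sham library. Replicate 5 had 0 counts of Myl7, which allows up to 3 counts. The difference was -4.97 ± 0.68 for Myl7 (edgeR adjusted p = 8.6e-07) and -3.35 ± 0.48 for Myl4 (edgeR adjusted p = 1.5e-06), and the values were -4.96 and -3.43 without IZ replicate 1.

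Genes typical of the atrium were set beside Myl4 and Myl7 in each sham library, and among them only Gja5 did not follow the same libraries. Sln, which encodes the atrial calcium pump inhibitor sarcolipin, had 16.02, 9.23, 15.3 and 25.9 CPM in sham replicates 4, 5, 6 and 8, and at most 2.69 CPM in the other 4 sham libraries. Mybphl, a myosin-binding protein gene of the atrium, had 2.76, 2.56, 5.10 and 7.70 CPM in the same 4 libraries and at most 0.784 CPM in the other 4. Myl7 in those 4 libraries had 81.7, 61.0, 163 and 279 CPM, and in sham replicates 1, 2, 3 and 7 it had 9.76, 35.0, 11.8 and 5.72 CPM. All 4 libraries high in Sln thus exceeded the other 4 for Myl7.

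Myl4 had 71.8, 49.8, 125 and 137 CPM in sham replicates 4, 5, 6 and 8 and 13.6, 55.1, 13.3 and 8.39 CPM in replicates 1, 2, 3 and 7. Replicate 2, low in Sln, exceeded replicate 5 here. Gja5, a connexin gene of the atrium that is also made in arterial endothelium, had 3.31, 5.64, 8.01 and 9.90 CPM in replicates 4, 5, 6 and 8 and 7.05, 8.74, 9.41 and 3.82 CPM in replicates 1, 2, 3 and 7, so it did not follow Sln.

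Over the atrial list, 4 of 5 genes were in the table and 2 were tested, with Kcnj3 lower and Gja5 higher, and the summed level ran from 39.2 to 103 CPM in sham and from 9.47 to 26.9 CPM in the IZ. The atrial gene Bmp10 was not analysed here. The part of atrial tissue in the levels of Myl4 and Myl7 was not tested. With those 4 sham libraries left out, an alternative chosen after the values were seen, the differences were -1.94 for Myl4 and -2.57 for Myl7, and both were still called lower.

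**Figure D2:**
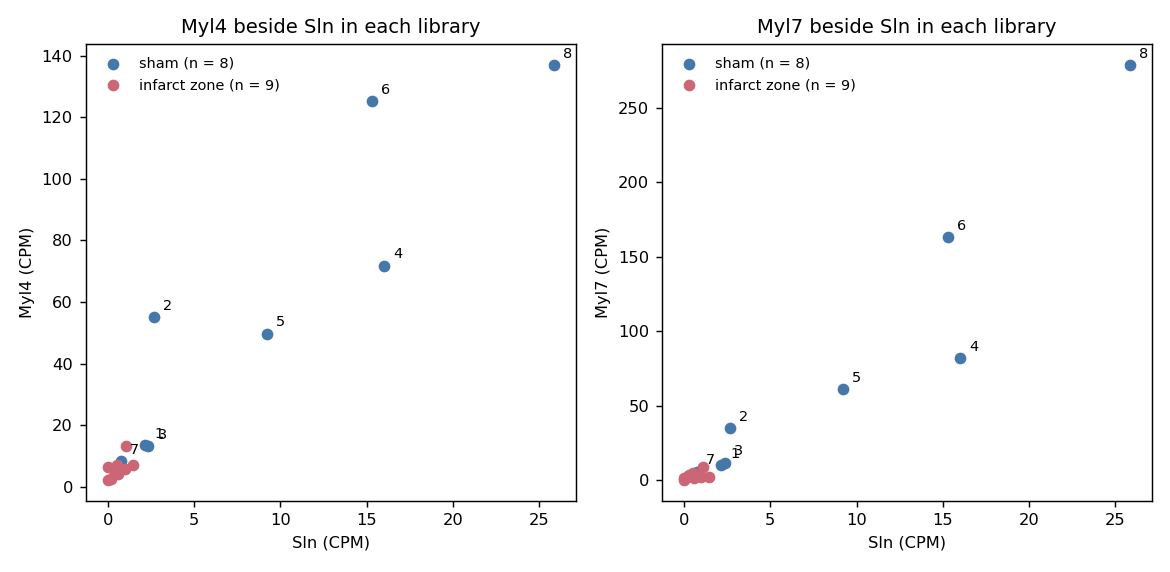
Myl4 (left) and Myl7 (right) on the vertical axis against Sln on the horizontal axis, in CPM after TMM scaling, 1 point per library, with the replicate number beside each sham point. Sham replicates 4, 5, 6 and 8 are high on the horizontal axis and have Myl7 between 61.0 and 279 CPM, whereas the IZ libraries sit near the origin.

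Mybpc3 and Mylk3 had the smallest differences of the 9. Mybpc3 had 1925, 3205 and 3756 CPM in sham and 231, 483 and 1623 CPM in the IZ (lowest, median, highest). Its groups did not overlap, and sham replicate 5 was the lowest of its group. The difference was -2.45 ± 0.32 (edgeR adjusted p = 4.3e-07), a 5.46-fold lower level, and -2.88 without IZ replicate 1.

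Mylk3 had 289, 417 and 555 CPM in sham and 20.2, 59.2 and 155 CPM in the IZ. Again no library crossed into the other group. The difference was -2.66 ± 0.29 (edgeR adjusted p = 2.8e-08), or 6.34-fold, and -3.01 without IZ replicate 1.

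To ask how the 9 genes changed relative to other cardiomyocyte transcripts, the same model was fitted with library sizes set by the 7 reference genes named above, none of which is a member. On this scale the median of all genes was 3.47, 95.3% of the 12301 genes were called higher and 1.06% lower. Of the 9 genes, 6 were called lower, 1 was called higher and 2 were not called, with a median of -1.24. Those 6 were Myh6, Myh7, Myh7b, Myl2, Myl3 and Myl7. The reference genes themselves were not uniform on this scale, with 1 called lower and 2 called higher, from -1.47 for the thin filament gene Tnni3 to 0.85 for Actc1, so Tnni3 lay below Myh6, Myh7, Myl2 and Myl3.

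Relative to the reference, the differences of the main ventricular chains were -1.24 ± 0.24 for Myh6, -1.38 ± 0.23 for Myl2 and -1.25 ± 0.25 for Myl3 (log2 ± SE, edgeR adjusted p = 4.1e-06, 2.9e-07 and 1.0e-05). Myh7 differed by -0.73 ± 0.25 (edgeR adjusted p = 0.0066). It lost its call, at -0.38, when 7 non-sarcomeric cardiomyocyte genes (Ryr2, Pln, Casq2, Hrc, Corin, Rbm20, Trdn) served as the reference. Under the first reference, 2 of those 7 genes were called lower, Hrc at -2.24 and Pln at -0.73, and 5 were not called. Myh7b differed by -2.20 ± 0.42 (edgeR adjusted p = 5.3e-06).

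Mybpc3 was the 1 gene called higher relative to the reference, by 0.55 ± 0.25 (edgeR adjusted p = 0.038). The call was lost when any of IZ replicates 6, 7 and 8 or sham replicates 4, 5, 6 and 7 was left out. Over omissions of every single library in turn the values ran from 0.47 to 0.61, and the difference was 0.87 with the non-sarcomeric reference. Mylk3 differed by 0.43 ± 0.29 and was not called (95% interval -0.13 to 0.999, edgeR adjusted p = 0.15). It was called, at 0.51, without IZ replicate 1.

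For the atrial chains, Myl7 differed by -1.48 ± 0.60 (edgeR adjusted p = 0.018) and Myl4 by 0.11 ± 0.47 (95% interval -0.82 to 1.03, edgeR adjusted p = 0.82) relative to the reference. The DESeq2 Wald test (-1.33, adjusted p = 0.12) and the non-sarcomeric reference (-1.15, edgeR adjusted p = 0.051) ended the call of Myl7. Both values depended on the sham libraries high in Sln. Without sham replicate 8 the difference of Myl7 was -0.80 and was not called, and without all 4 of those libraries it turned to 0.87, also not called, while Myl4 was called at 1.43.

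**Figure D3:**
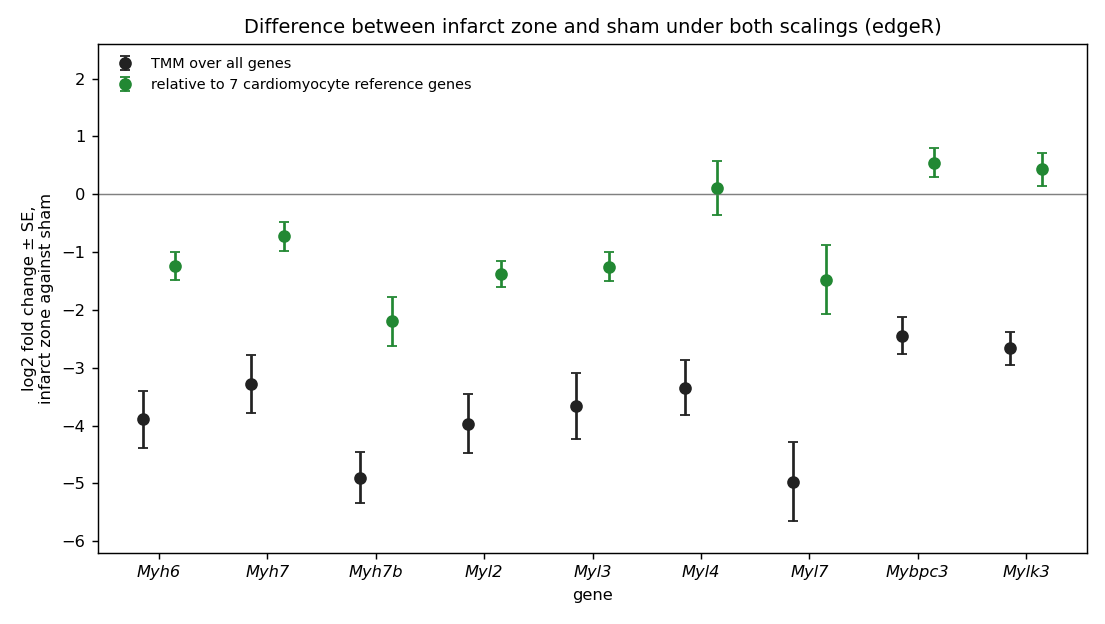
log2 fold change ± SE of each gene in the IZ (n = 9) against sham (n = 8), from edgeR with TMM scaling (black) and with library sizes set by 7 cardiomyocyte reference genes (green). Black points lie between -4.97 and -2.45. Among the green points 6 genes stay below 0 and Mybpc3, at 0.55, is called higher.

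Ratios between the genes were then taken within each library, since they do not depend on library scaling. Each ratio was the log2 of counts with 0.5 added, and the 8 ratios were compared with two-sided exact permutation tests over all 24310 assignments of the libraries to groups of 8 and 9, adjusted over the 8. Intervals on shares cover counting error only.

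Myh7 made up 22.3%, 23.6% and 25.2% of the summed Myh6 and Myh7 counts in sham (lowest, median, highest), and 24.8%, 30.7% and 38.7% in the IZ. In 8 of the 9 IZ libraries the log2 ratio exceeded that of every sham library, the exception being replicate 6. The mean share was 23.7 ± 1.13% in sham (SD, n = 8) and 30.4 ± 4.32% in the IZ (SD, n = 9). The widest 95% Wilson interval of a single IZ library spanned 5.14 percentage points.

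As a log2 ratio, Myh7 to Myh6 was higher in the IZ by 0.48 ± 0.10 (SE, exact permutation p = 0.000535, adjusted p = 0.00107), a 1.40-fold shift. Myh6 counts were 3.22 times those of Myh7 in sham and 2.31 times in the IZ (geometric means), so the alpha chain remained the more abundant transcript in every library. IZ replicate 1, which kept the most cardiomyocyte RNA, was within the range of its group, with a Myh7 share of 33.4%. The shared 3' sequence shown above limits how far the shares can be read as true proportions.

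Myh7b to Myh7 was lower in the IZ by 1.57 on the log2 scale. The log2 ratio ran from -7.18 to -6.01 in sham and from -10.13 to -6.97 in the IZ, where 8 of 9 libraries were below every sham library (difference -1.57 ± 0.32, exact permutation p = 0.000123, adjusted p = 0.000329). IZ replicates 6 and 7 had 0 counts of Myh7b, so their ratios, the lowest among them, were set by the 0.5 added. The difference was -0.05 when 5 instead of 0.5 was added to each count, as Myh7b had at most 5 counts in 8 of the 9 IZ libraries, so its size is not resolved at this depth.

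The share of the atrial regulatory chain, Myl7 to Myl2, did not separate the groups. The log2 ratio ran from -11.57 to -6.18 in sham and from -11.91 to -5.63 in the IZ (difference 0.36 ± 0.98, exact permutation p = 0.712, adjusted p = 0.712). It ranged from -0.02 to 0.79 over omissions of single libraries and was 2.04 without the 4 sham libraries high in Sln (exact permutation, adjusted p = 0.112). Myl4 to Myl3 ran from -10.12 to -5.82 in sham and from -8.94 to -3.72 in the IZ, with 5 of 9 IZ libraries above every sham library (difference 1.75 ± 0.77, exact permutation p = 0.0399, adjusted p = 0.0602). This difference did not pass after adjustment. It passed under 7 of 21 alternatives, among them without IZ replicate 1, at 2.12, and without the 4 sham libraries high in Sln, at 2.90.

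The ratios of light to heavy chain transcripts did not pass with all libraries. In these ratios and in that of Mybpc3, heavy chain reads counted for neither gene would be missing. Regulatory light chains (Myl2 and Myl7) to heavy chains (Myh6 and Myh7) had a mean ratio of 1.03 in sham and 0.865 in the IZ (geometric means), a log2 difference of -0.25 ± 0.11 that did not pass after adjustment (exact permutation p = 0.0452, adjusted p = 0.0602). It passed without IZ replicate 2 (-0.32, exact permutation, adjusted p = 0.0104) and without IZ replicate 4 (-0.29, adjusted p = 0.0323). Essential light chains (Myl3 and Myl4) to heavy chains had 0.458 and 0.406, a log2 difference of -0.17 ± 0.14 (exact permutation p = 0.261, adjusted p = 0.298).

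Mybpc3 was higher relative to the heavy chains. Its log2 ratio to the heavy chains ran from -2.95 to -2.27 in sham and from -2.002 to -0.48 in the IZ, and 9 of 9 IZ libraries were above every sham library. There was 1 Mybpc3 count for 6.04 heavy chain counts in sham and for 1.87 in the IZ (geometric means). The difference was 1.69 ± 0.18 (exact permutation p = 8.2e-05, adjusted p = 0.000329), or 3.23-fold. IZ replicate 1 was the lowest of its group and the nearest to sham.

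Mylk3 to the regulatory light chains was higher too, with log2 ratios from -5.85 to -5.21 in sham and from -5.24 to -2.94 in the IZ. All IZ libraries except replicate 1 were above every sham library. There was 1 count of the kinase for 46.7 regulatory light chain counts in sham and for 13.7 in the IZ, a log2 difference of 1.77 ± 0.25 (exact permutation p = 0.000123, adjusted p = 0.000329).

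**Figure D4:**
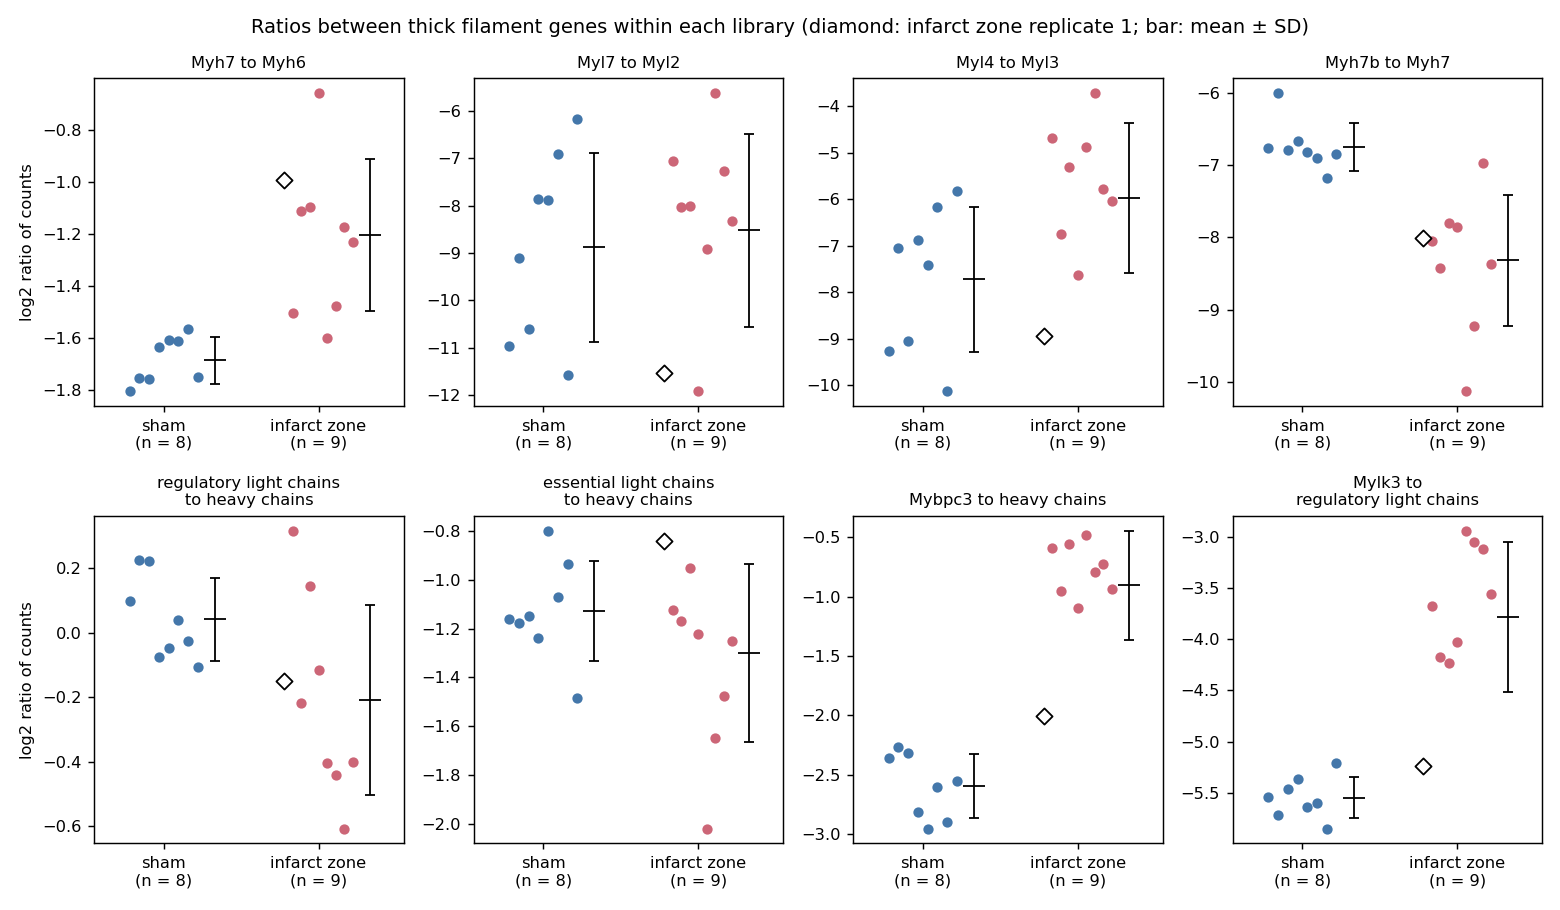
log2 ratio of counts between the 9 genes in each library for 8 ratios, with sham in blue (n = 8), the IZ in red (n = 9), IZ replicate 1 as a diamond and bars for the mean ± SD. Myh7 to Myh6, Mybpc3 to heavy chains and Mylk3 to regulatory light chains are higher in the IZ, and Myl7 to Myl2 spans the same range in both groups.

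Within the IZ, 3 isoform ratios were related to the mean log2 CPM of the 7 reference genes, which was 10.58 in replicate 1 and 7.51 to 8.59 in the other 8. The ratios and the reference level come from the same libraries. The denominators Myl3 and Myl2 are cardiomyocyte transcripts too, while Myl4 and Myl7 had at most 43 and 23 counts in any IZ library. A negative relation of Myl4 to Myl3 or Myl7 to Myl2 can therefore come from the denominator alone. The tests cannot tell that from a change in isoform use. Myh7 to Myh6 showed no relation that passed (Pearson r = 0.45, exact permutation p = 0.228, Spearman rho = 0.42, exact permutation p = 0.270, n = 9). Myl4 to Myl3 was lower where the reference level was higher (r = -0.84, exact permutation p = 0.00334, adjusted over 3 p = 0.0100, rho = -0.78, exact permutation p = 0.0172, adjusted p = 0.0321).

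Myl7 to Myl2 gave r = -0.73 (exact permutation p = 0.0170, adjusted p = 0.0256) and rho = -0.77 (exact permutation p = 0.0214, adjusted p = 0.0321). Without replicates 1 and 5, the libraries farthest from the median reference level, r was -0.53 for Myl4 to Myl3 (exact permutation p = 0.228) and -0.44 for Myl7 to Myl2 (exact permutation p = 0.330). Without those 2 libraries both coefficients kept their sign but neither passed, with fewer libraries left to test. Omission of IZ replicate 1 alone left neither passing, with r = -0.69 for Myl4 to Myl3 and -0.66 for Myl7 to Myl2. The adjusted p was 0.0872 for each (exact permutation). Myl7 to Myl2 also did not pass without IZ replicate 2 or 7 (exact permutation, adjusted p = 0.0597 and 0.0612).

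Genes outside the 9 whose levels followed them most closely were sought by Pearson correlation of log2 CPM deviations from the group means over the 17 libraries, among 9315 genes, as a description. Closest to Myh6 were Tnni3 (cardiac troponin I, r = 0.98), Mb (myoglobin, r = 0.98) and Chchd10 (a mitochondrial protein, r = 0.98). Closest to Myh7 were Cox8b (a cytochrome c oxidase subunit of muscle), Fndc5 and Chchd10, each at 0.98. For Myl2 they were Myom1 (the M-band protein myomesin, 0.99), Coq8a and Slc25a4 (the heart-type ADP/ATP carrier), both at 0.98. Without IZ replicate 1 these correlations were lower, 0.92 to 0.97 for the neighbours of Myh6, 0.92 to 0.95 for those of Myh7 and 0.86 to 0.93 for those of Myl2, and Mb then had the highest of the 3 for Myh6. Myl7 had looser neighbours, Pik3r4 at 0.84, Cd164 at 0.80 and Acp5 at 0.77, none of which is in the cardiomyocyte lists used here. Its IZ counts were at most 23, and Sln and Mybphl, averaging under 10 CPM, were not in the search. Myl4, left out as 1 of the 9, correlated with Myl7 at 0.98 in sham and 0.80 in the IZ without replicate 1 (n = 8 each).

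Other myosins of the tissue moved in both directions. Of 11 other conventional heavy chain genes 4 passed the filter, and 2 were higher and 2 lower in the IZ (edgeR, adjusted p under 0.05; 36.3% of the genes tested were called higher). The non-muscle heavy chains Myh9 and Myh10 rose by 1.76 ± 0.13 and 1.51 ± 0.20 on the log2 scale, and Myh9 averaged 96.3 ± 17.04 CPM over the 8 sham and 324 ± 51.6 CPM over the 9 IZ libraries (SD). Myh14, a further non-muscle type, fell by 3.15 (log2 fold change -3.15 ± 0.31), and Myh11, the smooth muscle heavy chain, changed by -0.92 ± 0.30. With total counts alone as library sizes Myh11 turned to 0.15. Myh4, a fast skeletal muscle chain, had 0 counts in every library.

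Of 8 other light chain genes 5 were tested. Myl6 (1.69 ± 0.13), Myl9 (1.68 ± 0.18) and Myl12b (1.02 ± 0.14), light chains of non-muscle and smooth muscle myosin, were higher, beside the 36.3% of all genes. Myl12a was lower at -0.52 ± 0.14 but turned to 0.53, called higher, with total counts alone. Myl1, a skeletal muscle essential chain, averaged 24.3 ± 3.45 CPM over the 8 sham and 30.4 ± 17.9 CPM over the 9 IZ libraries (SD) and was not called (0.28 ± 0.26, edgeR adjusted p = 0.35).

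Of 20 further genes of the thick filament, its kinases, phosphatases and chaperones, 14 were tested, 10 of them lower, 3 higher and 1 not called, beside 33.1% and 36.3% of all genes tested called lower and higher. The lowest was Mylk4, a kinase of the myosin light chain kinase family, at -5.20 ± 0.48, with means of 100.8 ± 22.8 CPM over the 8 sham and 3.16 ± 5.78 CPM over the 9 IZ libraries (SD). Without IZ replicate 1 it was -6.64, with an IZ mean of 1.27 CPM. Next were Smyd1, a methyltransferase needed for myofibril assembly, at -3.30 ± 0.44, or -4.27 without that library, and the M-band gene Myom2 at -3.09 ± 0.34. The 3 higher genes were the general chaperone Hsp90aa1 (0.81 ± 0.16), the general myosin chaperone Unc45a (0.63 ± 0.16) and the smooth muscle and non-muscle kinase Mylk (0.60 ± 0.15).

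The muscle chaperone Unc45b, named after its value was seen as the counterpart of Unc45a, was lower at -2.80 ± 0.21, so the pair of chaperones moved in opposite directions under TMM scaling. Relative to the cardiomyocyte reference, Unc45b differed by 0.41 ± 0.30 and was not called (edgeR adjusted p = 0.18), and Mylk4 was lower at -2.61 ± 0.40.

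**Figure D5:**
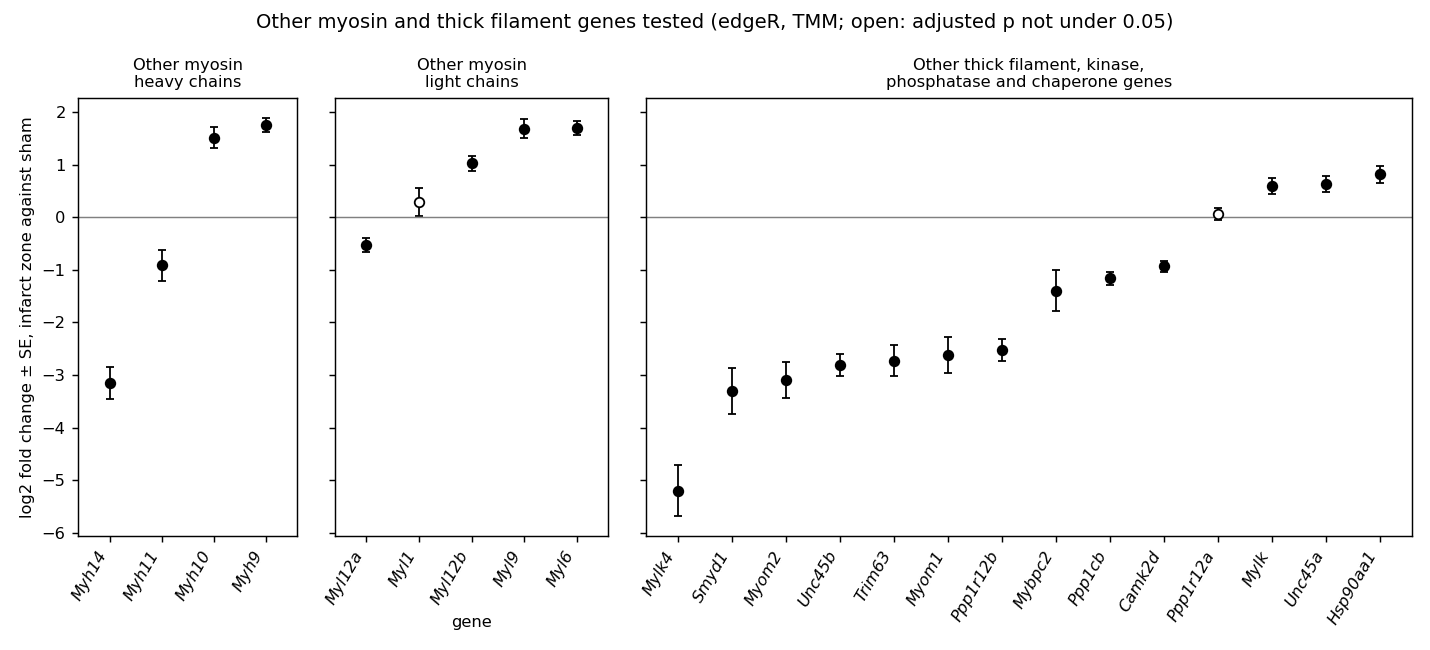
log2 fold change ± SE in the IZ (n = 9) against sham (n = 8) for the tested genes of 3 lists, from edgeR with TMM scaling, with filled points for adjusted p under 0.05 and open points for the others. Non-muscle Myh9 and Myh10 lie above 0, whereas Mylk4, Smyd1 and Myom2 lie lowest among the thick filament and kinase genes.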

How the data were processed

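Hearts of 17 mice were analysed, 8 sham and 9 IZ libraries, grouped by the treatment labels. The authors made 3' end (MACE) libraries with molecular identifiers to remove PCR duplicates, trimmed the reads with Cutadapt, mapped them to mm10 (Bowtie2 is listed in the submitters' processing notes) and counted genes with HTSeq. The deposited table gives unnormalized counts per gene, and all 17 columns were used. The table held 31647 features, of which 35 were merged overlapping genes, and 31521 matched GENCODE M21. Library totals were 1237675 to 4738307 counts, and no 2 libraries agreed within sampling noise (lowest chi-square per degree of freedom 2.41). The labels name separate samples, and p-values measure the spread between them.

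Counts were tested with edgeR 4.0.16 (quasi-likelihood, TMM, filterByExpr with a minimum count of 10) in R 4.3.3 over 12301 genes, with Benjamini-Hochberg adjustment at 0.05. A second fit set library sizes by 7 cardiomyocyte genes. log2 CPM used a prior count of 1. Ratios and relations used exact permutation tests in SciPy 1.17.1. The steps were tested on simulated data. Alternatives were DESeq2 1.42.0, other scalings and filters, a replicate block and omissions of single libraries. Named genes outside the members were the 3 highest and 3 lowest called genes of each of 3 lists (10 CPM or more on average), and the 3 nearest by correlation for 4 members. Myl1, Myh4, Unc45b, Mhrt, the atrial markers and reference genes given with values fall outside this rule and were named after their values were seen. The members and lists were chosen with earlier results of these data known. Authors' fold changes and p-values were not used.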

Additional observations from a re-analysis of the deposited data

Results flagged for a closer look

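In 34 groups of 8 or 9 libraries, covering the level of each of the 9 genes and each of the 8 ratios in sham and in the IZ, the highest or lowest library was compared with its nearest neighbour by Dixon's criterion, which 7 groups exceeded, through 3 libraries in all. Chance gives about 1 in 20 groups. In 5 of the 7 the library was IZ replicate 1. It was the highest IZ library for Myh6 (12.08 log2 CPM, next 9.64), Myh7 (11.09, next 8.83), Myl2 (12.52, next 10.08) and Myl3 (11.82, next 8.97), and the lowest for the log2 ratio of Mybpc3 to the heavy chains (-2.002, next -1.10). In sham, replicate 5 was lowest for Myl2 (13.81 log2 CPM, next 14.13), and replicate 2 was highest for the log2 ratio of Myh7b to Myh7 (-6.01, next -6.66).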

How the results depend on the processing

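Under TMM and its 26 alternatives all 9 genes were called lower wherever they were tested. A minimum mean of 50 counts removed Myh7b and left 8. Total counts alone shifted the median of all genes from 0.05 to 1.13 and raised the share of calls that were higher from 52.3% to 85.7%. It made the differences of all 9 genes smaller, with -3.01 for Myh6, -1.49 for Mybpc3 and -1.68 for Mylk3. It also gave 8 instead of 13 lower calls in the 3 lists of other genes and turned Myh11 to 0.15 and Myl12a to 0.53. Relative to the cardiomyocyte reference, 2 genes were called higher with the non-sarcomeric list and 0 with the replicate block, with a range of 0 to 2 when single libraries were left out. Without the 4 sham libraries high in Sln, Myl7 turned to 0.87. There and with the non-sarcomeric list 4 genes instead of 6 were called lower, without Myh7 and Myl7, and the DESeq2 Wald test ended the call of Myl7.

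The 8 same-numbered pairs of sham and IZ libraries correlated at -0.22 to 0.13, with 1 pair above 0.1 and 1 best with its own number, so the numbers did not pair the libraries. With the replicate block the log2 difference of Myl4 to Myl3 was 1.76 and passed, and Mybpc3 relative to the reference was 0.57 and did not pass. All 9 genes were called lower with the block under TMM. Of the ratios, Myl4 to Myl3 also passed with a prior count of 5 (1.98) and without those 4 sham libraries (2.90), and ranged from 1.41 to 2.12 over omissions of single libraries. Among those omissions it passed without sham replicate 6 or 8 and without IZ replicate 1 or 5. Regulatory light chains to heavy chains ranged from -0.32 to -0.20 and passed without IZ replicate 2 or 4, and Myh7b to Myh7 was -0.047 with a prior count of 5. The relation to the reference level was -0.44 for Myl7 to Myl2 and -0.53 for Myl4 to Myl3 without the 2 libraries farthest from the median, and ranged from -0.85 to -0.66 and from -0.90 to -0.69 over omissions of single libraries. Neither relation passed without IZ replicate 1, and Myl7 to Myl2 also did not pass without IZ replicate 2 or 7. The cause of these changes was not tested. Depth limits Myh7b and Myl7 in the IZ, where most libraries had few counts.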
